A study of Mus musculus with 8 samples.

Results

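Agr2 and Agr3 are 2 neighbouring genes for secretory pathway proteins of the protein disulfide isomerase family, and they were chosen because their levels moved in opposite directions between the genotypes compared here. They are 2 of the 53801 genes in the deposited count table and 2 of the 25485 genes in the deposited normalised table, where both were found by symbol. The choice therefore rested on the difference between genotypes itself, so the values of that difference are given as a description with no test for either gene. Messenger RNA was sequenced from Lgr5-GFP+ cells sorted from intestinal crypts of 8 mice, 4 labelled β-catGOF; Mll1-/- and 4 labelled β-catGOF; Mll1+/-. All 8 mice carried Lgr5-EGFP-IRES-CreERT2 and the β-catenin deltaEx3 allele, which gives a stabilised β-catenin once the exon is removed, together with floxed Mll1. The Mll1+/- mice are the controls, and they share the activated β-catenin and the loss of 1 Mll1 copy with the knockout. Mice of 4 to 6 weeks received tamoxifen at 50 mg/kg into the peritoneum on 3 days in a row, and the crypts were dissociated 10 days after induction. The Cre driver acts only in cells that express Lgr5, 300 cells were sorted into each tube, and the RNA was amplified by Smart-seq2 without molecular identifiers. The question of the comparison is how the loss of Mll1 alters the transcriptome of stem cells with activated β-catenin.

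Agr2 is a resident of the endoplasmic reticulum that is abundant in goblet cells, where it binds the gel-forming mucin Muc2 during folding and is needed for a normal mucus layer. Agr3 is its closest paralog and is best known from ciliated cells of the airway, where it is needed for normal ciliary beating. Both carry a thioredoxin fold with a short redox motif and a signal at the end of the protein that keeps it in the endoplasmic reticulum. Agr2 transcription is known to respond to forkhead factors of the Foxa family, to the goblet cell factor Spdef and to the unfolded protein response.

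Both genes lie on the plus strand of mouse chromosome 12 (mm10, GRCm38). Agr3 (ENSMUSG00000036231) spans chr12:35925620-35949736 and Agr2 (ENSMUSG00000020581) spans chr12:35992907-36004087. The annotation places 43170 bases and 0 genes between the end of Agr3 and the start of Agr2, and no other gene overlaps either of them. The coding transcript of each has 8 exons, and exons 3, 4, 6 and 7 have the same length in both genes (64, 53, 64 and 84 bases). The coding sequence is 528 bases in Agr2 and 498 bases in Agr3, and 342 of 495 aligned bases (69.1%) were identical. None of the 1261 words of 31 bases in the counted exons of Agr2 and none of the 972 in those of Agr3 occurred in the other gene or in any other annotated transcript, so a read of that length could be placed in 1 of the paralogs.

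The stretch of coding sequence around the redox motif is shown first (GENCODE M21, GRCm38, spliced across an intron). The Agr2 stretch lies within chr12:35996088-35997442 and the Agr3 stretch within chr12:35946912-35947535, and 43 of the 60 bases were identical. Capitals mark the first and the last codon of the motif in Agr2 and the codons aligned to them in Agr3. TGC and TGT are codons for cysteine and AGT is a codon for serine.
Agr2 redox motif: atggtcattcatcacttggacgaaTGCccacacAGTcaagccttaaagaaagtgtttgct
Agr3 redox motif: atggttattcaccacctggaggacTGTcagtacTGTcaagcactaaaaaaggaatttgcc

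The last codons of both genes are shown because they encode the retention signal (GENCODE M21, GRCm38). They lie at chr12:36003863-36003901 in Agr2 and at chr12:35949508-35949546 in Agr3, and 28 of 39 bases were identical. Capitals mark the final 4 codons before the stop codon.
Agr2 last codons: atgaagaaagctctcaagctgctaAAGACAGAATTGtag
Agr3 last codons: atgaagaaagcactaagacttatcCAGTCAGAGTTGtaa

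The sequence upstream of each gene is shown because the genes moved apart and because Foxa1, a forkhead factor, fell in the same comparison (below). Both promoters were found by symbol in the RefSeq table (GRCm38.p6, plus strand) and are printed up to the base before the first annotated base, as 232 bases at chr12:35992675-35992906 for Agr2 and 249 bases at chr12:35925371-35925619 for Agr3. Capitals mark matches to a forkhead word, and on the printed strand a match to the reverse strand appears as its complement.
Agr2 promoter: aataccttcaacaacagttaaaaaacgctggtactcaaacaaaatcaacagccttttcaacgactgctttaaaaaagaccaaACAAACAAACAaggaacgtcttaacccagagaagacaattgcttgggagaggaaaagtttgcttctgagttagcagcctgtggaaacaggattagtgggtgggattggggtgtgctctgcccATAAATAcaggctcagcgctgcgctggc
Agr3 promoter: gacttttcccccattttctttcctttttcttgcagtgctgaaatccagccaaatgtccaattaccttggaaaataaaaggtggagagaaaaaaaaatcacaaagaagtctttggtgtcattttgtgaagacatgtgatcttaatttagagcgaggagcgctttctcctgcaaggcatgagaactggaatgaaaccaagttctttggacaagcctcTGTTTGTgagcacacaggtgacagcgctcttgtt

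The forkhead words searched on both strands were all those that begin with TGTTT, or with the variant TATTT, and end in AC, GC, GT or AT. Agr2 held 3 matches, all on the reverse strand: a pair of overlapping TGTTTGT words at 168 to 162 and 164 to 158 bases before the RefSeq start, and TATTTAT at 46 to 40 bases before it. Agr3 held 1 match, TGTTTGT on the plus strand at 35 to 29 bases before its start. At least 1 of these words occurred in 24.9% of 32851 promoters searched over 1 common length up to the RefSeq start, and TGTTTGT in 5.84%. That length runs past the end of the stretch printed for either gene. The share of promoters with 3 matches was not computed. CCAAT was found in both promoters and in 33.85% of all promoters. The Cdx word TTTATNG occurred in Agr2, where it overlaps the TATTTAT match, but not in Agr3, and in 9.81% of all. Neither promoter held TATAAA (12.4% of all), the TCF words CTTTGAA or CTTTGAT (7.48%), CAGCTG (4271 promoters), CAGATG (14.4%) or TGACGTG (1.65%).

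Depth was alike in the 8 libraries, with 14468751 to 16847793 counts on genes. Without molecular identifiers these counts include amplified copies, so they do not give the number of molecules sampled. Levels are CPM, the counts scaled to a common library total after TMM scaling, and fold changes are on the log2 scale with the Mll1+/- libraries as the reference. Kmt2a, the gene for Mll1, was not lower in the libraries labelled Mll1-/-, at 63.5 ± 10.7 CPM against 53.8 ± 7.45 CPM (SD, n = 4 each), with a log2 fold change of 0.24 (SE 0.17, edgeR adjusted p = 0.710). A gene count does not show deleted exons separately, so this check of the labels stands at the level of the whole gene, and genotypes are given here as the libraries are labelled. The mitochondrial share of counts was 17.1% to 27.1% in Mll1-/- and 23.3% to 30.1% in Mll1+/- libraries. Lgr5 itself was at 261.1 ± 19.9 CPM against 271.3 ± 41.0 CPM (adjusted p = 0.933), and Olfm4 at 12160 ± 2796 CPM against 20741 ± 1705 CPM (adjusted p = 0.200). Immune markers were near 0, with 2 of 12 above the filter, a summed level of 3.14 to 11.99 CPM in Mll1-/- and 9.49 to 18.0 CPM in Mll1+/- libraries, and Ptprc, the gene for the CD45 antigen stained before sorting, at 0 to 16 counts. Of the 10 mesenchymal and endothelial markers 7 were below the filter, whereas Vim had 44.3 to 115.5 CPM in Mll1-/- and 0.194 to 4.89 CPM in Mll1+/- libraries (adjusted p = 0.108).

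Agr2 was higher in the libraries labelled Mll1-/-. Its level there ran from 219.1 CPM in J_7075 over 383.2 CPM (J_7135) and 424.4 CPM (J_7136) to 434.6 CPM in J_7096. In the Mll1+/- libraries it ran from 163.0 CPM in J_7079 over 183.9 CPM (J_7134) and 188.6 CPM (J_7100) to 233.5 CPM in J_7139. J_7096, J_7135 and J_7136 lay above every control, while J_7075 lay below J_7139, so the genotypes overlapped. The means were 365.3 ± 100.0 CPM and 192.2 ± 29.7 CPM (SD, n = 4 each), and the log2 fold change was 0.93 (SE 0.21). These levels rested on 2293 to 7504 counts per library. In bulk RNA, a change in the number of cells with a transcript and a change in transcript per cell cannot be told apart.

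Agr3 was lower in the same libraries. Its level in Mll1-/- libraries was lowest in J_7096 at 28.6 CPM, followed by J_7075 with 31.3 CPM, J_7136 with 43.9 CPM and J_7135 with 46.9 CPM. In Mll1+/- libraries it was lowest in J_7139 at 90.1 CPM, followed by J_7100 with 96.3 CPM, J_7134 with 106.7 CPM and J_7079 with 134.1 CPM. The genotypes did not overlap, and the highest Mll1-/- library, J_7135, lay well below the lowest control, J_7139. The means were 37.7 ± 9.10 CPM and 106.8 ± 19.5 CPM (SD, n = 4 each), and the log2 fold change was −1.50 (SE 0.21), from 494 to 2242 counts per library. Among all 16445 genes tested, 2.94% were lower in Mll1-/- libraries with no overlap and 6.28% did not overlap in either direction, and 0.0851% passed an adjusted p of 0.1. Since the members were chosen on this contrast, nothing is read from where they stand among those shares.

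**Figure D1:**
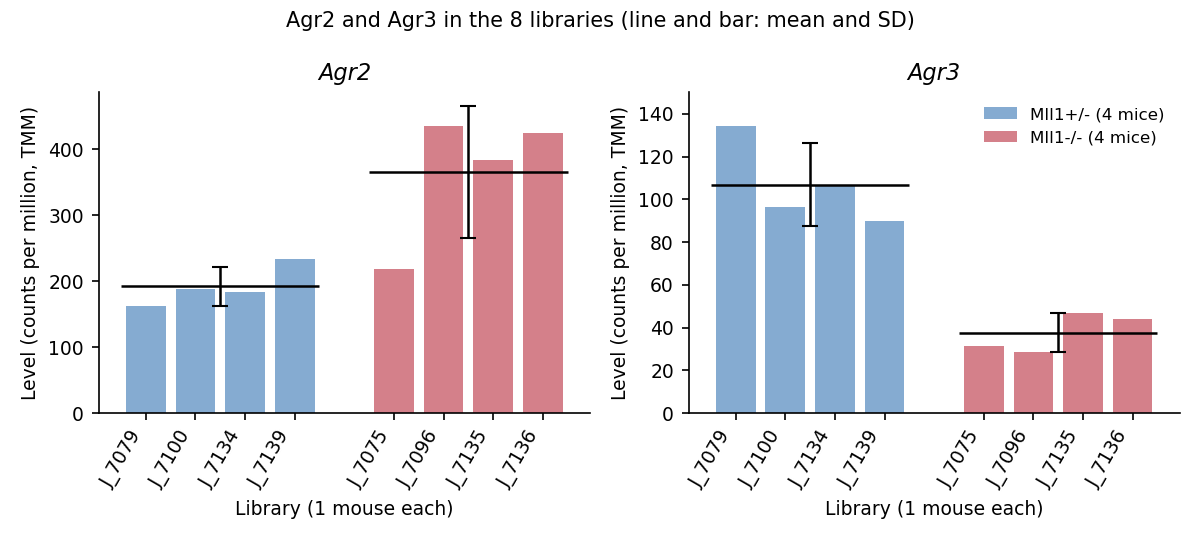
Level of Agr2 (left) and Agr3 (right) in CPM for each library, 1 mouse each, with the Mll1+/- libraries in blue and the Mll1-/- libraries in red. The horizontal line and the bar give the mean and SD of 4 libraries. Agr2 is at 163.0 to 233.5 CPM in Mll1+/- and 219.1 to 434.6 CPM in Mll1-/- libraries, and Agr3 is at 90.1 to 134.1 CPM and 28.6 to 46.9 CPM.

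The libraries fall into 2 runs of library numbers, each with 2 mice of either genotype. The difference of mean log2 CPM between genotypes was 0.82 and 0.96 for Agr2 in the first and the second run. For Agr3 it was −1.92 and −1.11. The direction was the same in each run, but the genes were chosen on these same libraries, so this is no independent check. The size for Agr3 varied more than that for Agr2. The edgeR interaction of genotype and run gave an adjusted p under 0.1 for 0 of the 16445 genes. With 2 mice of either genotype in each run, a difference between runs could easily be missed.

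The opposite differences changed the balance of the paralogs. Levels of different genes are compared per kb of counted exon (CPM per kb), with 1291 bases for Agr2 and 972 for Agr3. The level of Agr2 was 283.0 ± 77.5 CPM per kb in Mll1-/- and 148.9 ± 23.0 CPM per kb in Mll1+/- libraries, and that of Agr3 was 38.8 ± 9.36 and 109.9 ± 20.0 CPM per kb (SD, n = 4 each). Among genes with a count, Agr2 ranked 243rd in Mll1-/- and 489th in Mll1+/- libraries by mean CPM per kb, and Agr3 ranked 1560th and 630th. The ratio of Agr2 to Agr3 was 5.27 in J_7075, 11.4 in J_7096, 6.15 in J_7135 and 7.27 in J_7136. It was 0.915 in J_7079, 1.47 in J_7100, 1.30 in J_7134 and 1.95 in J_7139. Agr2 exceeded Agr3 by at least 5.27 times in each Mll1-/- library, whereas the ratio was 0.915 to 1.95 in the controls. Summed, they reached 201.9 to 373.9 CPM per kb in Mll1-/- and 245.2 to 273.6 CPM per kb in Mll1+/- libraries, and these ranges overlapped. J_7075 had the lowest sum and J_7136 the highest.

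The length that enters this ratio is not the same kind of length in both genes. The counted exons of Agr2 include 507 bases at chr12:35997497-35998003 from a transcript that retains intron sequence, and those of Agr3 include 146 bases at chr12:35926318-35926463 from an extra exon. On the coding transcripts alone (784 and 826 bases), a length chosen after seeing the data, the ratio was 7.38 to 16.0 in Mll1-/- and 1.28 to 2.73 in Mll1+/- libraries. Agr2 then exceeded Agr3 in J_7079 too, so the order of the genes in that library depended on the length used.

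**Figure D2:**
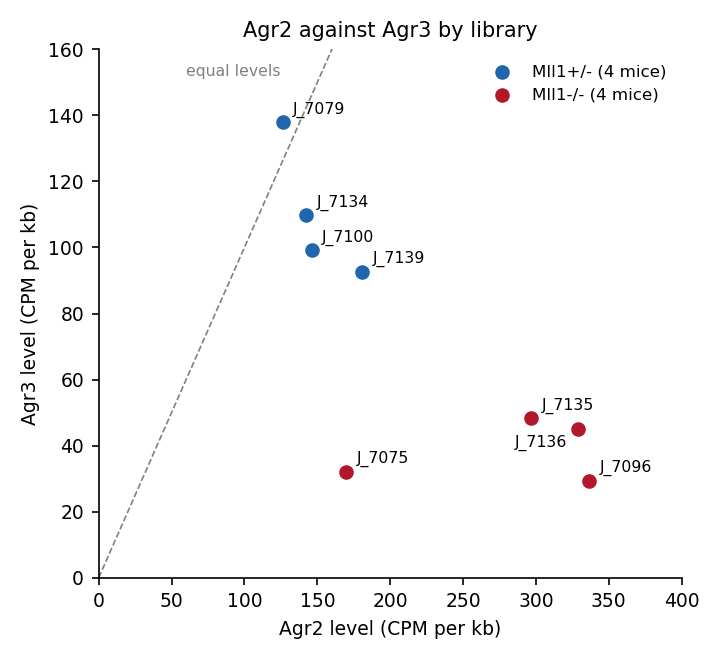
Level of Agr3 against that of Agr2 in CPM per kb of counted exon, 1 point per library, with the Mll1+/- libraries in blue and the Mll1-/- libraries in red. The dashed line marks equal levels, with J_7079 just above it at a ratio of 0.915 and J_7096 farthest from it at 11.4.

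Within the isomerase family the paralogs differed in rank. The family resides in the endoplasmic reticulum and makes, breaks and rearranges disulfide bonds of secreted proteins, and 22 of its genes were compared per kb. By mean level per kb Agr2 ranked 1st in both genotypes. Pdia3, the isomerase that works on glycoproteins, followed at 165.2 ± 26.8 and 147.0 ± 10.2 CPM per kb. Agr2 was first in 3 of 4 libraries of each genotype, and Pdia3 was first in J_7075 and J_7079. In the controls the means of Agr2 and Pdia3 differed by less than the spread among mice. Agr3 ranked 2nd to 4th in the Mll1+/- libraries and 5th to 9th in the Mll1-/- libraries. All these ranks depend on the counted exon length. In CPM without length, Pdia3 was above Agr2, at 518.7 against 365.3 CPM in Mll1-/- and 461.4 against 192.2 CPM in Mll1+/- libraries. Family ranks by coding transcript length were not computed. Txndc12, another gene of the Agr subfamily, was at 34.8 ± 3.24 and 36.5 ± 9.32 CPM per kb, so that in Mll1-/- libraries Agr3 was at about its level.

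**Figure D3:**
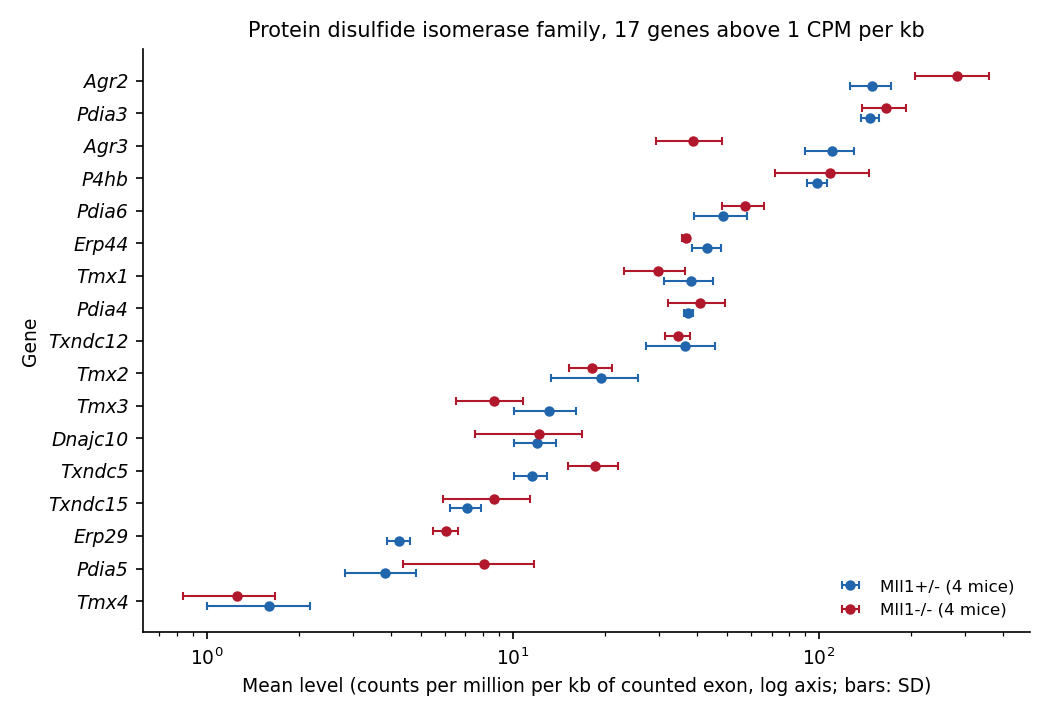
Mean level in CPM per kb of counted exon on a log axis, with SD over 4 libraries, for the 17 family genes above 1 CPM per kb, in Mll1+/- (blue) and Mll1-/- (red) libraries. Agr2 stands at the top in both genotypes, and Agr3 is at 109.9 CPM per kb in Mll1+/- and 38.8 CPM per kb in Mll1-/- libraries.

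The other isomerases gave no call with edgeR, while DESeq2 without the filter called Txndc5 and Erp29. Of 20 listed genes 15 passed the filter, 9 were higher and 6 lower in Mll1-/- libraries, 0 passed an adjusted p of 0.1, and the median log2 fold change was 0.13, against 0.01 over all tested genes. Txndc5, an isomerase of secretory cells, was at 83.6 ± 15.8 against 51.8 ± 6.50 CPM (log2 fold change 0.69, SE 0.17, edgeR adjusted p = 0.251). Erp29, a chaperone of the family without the redox motif, was at 54.7 ± 5.16 against 38.5 ± 3.42 CPM (0.51, SE 0.14, adjusted p = 0.346). Pdia5 was at 14.6 ± 6.66 against 6.92 ± 1.79 CPM (1.07, SE 0.35, adjusted p = 0.426). These 3 did not overlap between genotypes, against 3.34% of all tested genes that were higher with no overlap. Tmx3, a transmembrane member, was at 40.0 ± 9.82 against 60.4 ± 13.9 CPM (−0.60, SE 0.24, adjusted p = 0.511), and Txndc12 had a log2 fold change of −0.07 (SE 0.18, adjusted p = 0.942). Of 9 genes of oxidation in the endoplasmic reticulum, which recharge the isomerases, 8 passed the filter, 4 in each direction, with 0 calls and a median of −0.14. Vkorc1 was the one with an unadjusted p under 0.05, at 11.9 ± 3.21 against 17.2 ± 1.26 CPM (−0.53, SE 0.23, adjusted p = 0.543).

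Muc2, the mucin that Agr2 handles in goblet cells, was detected in all libraries. Its levels in Mll1-/- libraries were 25.4 CPM (J_7096), 25.9 CPM (J_7075), 31.8 CPM (J_7136) and 81.8 CPM (J_7135). Those in Mll1+/- libraries were 7.62 CPM (J_7139), 8.51 CPM (J_7100), 12.2 CPM (J_7134) and 14.7 CPM (J_7079). Every Mll1-/- library lay above every control, with a log2 fold change of 1.94 (SE 0.43), but the edgeR adjusted p was 0.202. Over all tested genes 3.34% were higher with no overlap. DESeq2 without the filter called Muc2, as did edgeR without a filter. J_7096 had the highest Agr2 and the lowest Muc2 of the Mll1-/- libraries. The other 4 gel-forming mucins were below the filter, with at most 10 counts in a library. Of 9 transmembrane mucins 5 passed the filter, 3 higher and 2 lower, with 0 calls and a median of 0.05.

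Of 8 genes whose products are reported partners of Agr2 or Agr3, 7 passed the filter, 4 higher and 3 lower, with 0 calls and a median of 0.09. Ern2, the stress sensor of mucus-producing epithelia, was at 7.90 ± 2.49 against 2.22 ± 1.15 CPM with no overlap (log2 fold change 1.83, SE 0.44, edgeR adjusted p = 0.249). DESeq2 without the filter called Ern2, and 3.34% of all tested genes were higher with no overlap. Hspa5, the main chaperone of the endoplasmic reticulum, was at 575.6 ± 233.1 against 485.6 ± 107.2 CPM (0.25, SE 0.26, adjusted p = 0.831), and its highest library was J_7135 with 920.6 CPM. Of 26 genes of the unfolded protein response 25 passed the filter, 17 higher and 8 lower, with 0 calls and a median of 0.07. Xbp1, the factor that the stress sensors activate, was at 118.2 ± 36.8 against 126.7 ± 21.5 CPM (−0.10, SE 0.23, adjusted p = 0.930). The chaperone Sdf2l1 was at 25.7 ± 10.0 against 14.6 ± 3.19 CPM (0.82, SE 0.29, adjusted p = 0.474), and the lectin chaperone Canx was at 325.9 ± 41.6 against 392.3 ± 9.93 CPM (−0.27, SE 0.11, adjusted p = 0.524). Of the 25 genes tested 3 were higher and 1 lower with no overlap, Sdf2l1 and Canx among them, against 3.34% and 2.94% of all tested genes.

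Among 14 transcription factors with a known link to Agr2, goblet cells or cilia, 13 passed the filter, 6 higher and 7 lower. Foxa1 fell, the only call of the list, where 0.0851% of all tested genes were called. Its levels in Mll1-/- libraries were 6.81 CPM (J_7135), 7.49 CPM (J_7136), 8.57 CPM (J_7096) and 13.4 CPM (J_7075). Those in Mll1+/- libraries were 32.3 CPM (J_7079), 32.6 CPM (J_7134), 35.3 CPM (J_7139) and 43.7 CPM (J_7100). All Mll1-/- libraries lay far below the controls, with a log2 fold change of −1.99 (SE 0.25, edgeR adjusted p = 0.0918). The call did not survive leaving out any of J_7096, J_7136 and the 4 controls in turn (adjusted p 0.191 to 0.289), and it held without J_7075 (0.0798) or J_7135 (0.0325). It was also lost with the library run as a term (adjusted p = 0.113). The call held with limma-voom (adjusted p = 0.0139), with DESeq2 (1.88e-10), without a filter (0.0318) and with at least 10 counts in every library (0.0510). The log2 fold change was −2.24 to −1.87 over the left-out libraries. The other Foxa genes gave no call, with Foxa2 at 13.7 ± 6.94 against 9.81 ± 2.04 CPM (0.48, SE 0.42, adjusted p = 0.777) and Foxa3 at 28.1 ± 5.56 against 19.5 ± 4.54 CPM (0.53, SE 0.23, adjusted p = 0.536).

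Other factors of the list with an unadjusted p under 0.05 gave no edgeR call. DESeq2 without the filter, which was run on 40036 genes and called 517, called Spdef (adjusted p = 0.00164), Atoh1 and Klf4. Spdef, which drives goblet cell maturation, was at 4.66, 4.11, 15.1 and 6.63 CPM in J_7075, J_7096, J_7135 and J_7136, and at 1.91, 1.62, 1.52 and 0.646 CPM in J_7079, J_7100, J_7134 and J_7139 (log2 fold change 2.41, SE 0.53, adjusted p = 0.205). Atoh1, which directs cells to the secretory lineage, was at 21.5 ± 16.2 against 4.52 ± 2.54 CPM (2.24, SE 0.73, adjusted p = 0.429). Klf4 was at 29.7 ± 6.70 against 12.99 ± 4.45 CPM (1.19, SE 0.28, adjusted p = 0.243), and Creb3l1 at 8.09 ± 1.50 against 2.62 ± 2.04 CPM (1.62, SE 0.59, adjusted p = 0.481). These 4, of the 13 factors tested, were higher with no overlap between genotypes, against 3.34% of all tested genes.

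The genes of motile cilia, with which Agr3 is associated in the airway, were mostly absent. Of 33 listed genes 9 passed the filter, 4 higher and 5 lower, with a median of −0.38, and Foxj1, the master regulator of motile cilia, had 0 to 2 counts in every library. Fam183b fell, at 8.60 ± 1.19 against 24.9 ± 4.84 CPM with no overlap (log2 fold change −1.54, SE 0.22, edgeR adjusted p = 0.0918). Over all tested genes 0.0851% were called and 2.94% were lower with no overlap. The Fam183b call held without J_7135 (adjusted p = 0.0538) and was lost without any of the other libraries (0.180 to 0.289), with the library run as a term (0.113) and with upper quartile scaling (0.102). With limma-voom (adjusted p = 0.0337) and DESeq2 (2.98e-08) it held. Agr3 was thus measured at 90.1 to 134.1 CPM in control libraries in which the defining gene of ciliated cells was at or near 0.

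**Figure D4:**
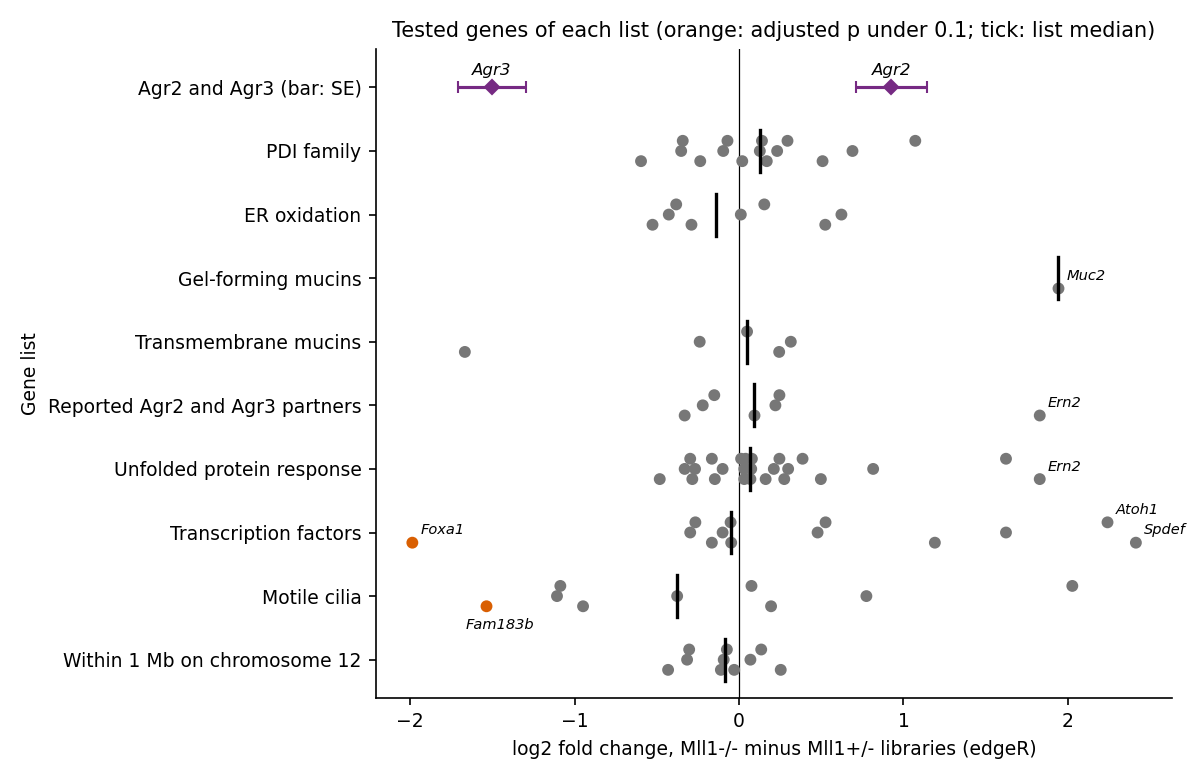
Log2 fold change of Mll1-/- against Mll1+/- libraries (edgeR) for the tested genes of 9 lists, 1 point per gene, with orange for an adjusted p under 0.1 and a black tick for the list median. Purple diamonds give Agr2 (0.93) and Agr3 (−1.50) with their SE. Foxa1 at −1.99 and Fam183b at −1.54 are the orange points.

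Markers of stem cells and of other crypt cells are given beside the members. Of 17 stem cell markers 4 were higher and 13 lower, with a median of −0.21 and 1 call, Soat1, an enzyme of cholesterol storage, which fell from 478.1 ± 73.2 to 252.5 ± 16.9 CPM (log2 fold change −0.92, SE 0.13, edgeR adjusted p = 0.0918), where 0.0851% of all tested genes were called. The Soat1 call held without J_7135 (adjusted p = 0.0689) and was lost without any other library (0.180 to 0.250) and with the library run as a term (0.113). With limma-voom (adjusted p = 0.0418) and DESeq2 (2.67e-06) it held. The stem cell median was −0.12 without J_7096 and −0.31 without J_7134. Of 22 goblet cell markers 18 passed the filter, 13 higher and 5 lower in Mll1-/- libraries, with a median of 0.95 that was 0.48 without J_7096 and 0.59 without J_7135. Their summed level was 566.6 to 959.7 CPM in Mll1-/- and 517.2 to 692.1 CPM in Mll1+/- libraries, and edgeR called no goblet marker. Among these markers DESeq2 called at least Muc2, Spdef, Ern2 and Atoh1, which are also in the pathway lists. For the Paneth, enterocyte and enteroendocrine markers only edgeR calls are given. Of 18 Paneth cell markers 2 were higher and 16 lower, with a median of −1.31, no edgeR call and a summed level of 1907 to 5575 against 3693 to 6373 CPM. Of 14 enterocyte markers 11 passed the filter and all 11 were lower, with a median of −1.16 and no edgeR call. Their summed level was 546.5 to 845.5 against 789.7 to 924.1 CPM. Of 16 enteroendocrine markers 10 passed, 9 of them lower, with no edgeR call and a median of −1.38. That median was −0.76 without J_7079, −0.86 with the library run as a term and −0.54 once each library had to reach 10 counts for a gene. Chga, which defines these cells, was at 0 to 3 counts in Mll1-/- and 11 to 114 counts in Mll1+/- libraries. Tuft cell markers gave 3 higher and 1 lower of 4 tested, and Dclk1 had 1 to 11 counts. The part of these cell types in the values of Agr2 and Agr3 was not tested.

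The neighbours of the pair on chromosome 12 gave no call. Of 37 other genes annotated within 1 Mb, 10 passed the filter, 3 higher and 7 lower, with 0 calls, 0 without overlap and a median log2 fold change of −0.08. Over all tested genes 0.0851% were called and 6.28% did not overlap, so 0 of 10 lies near those shares. The gene nearest to Agr2 among them, Tspan13, a tetraspanin, was at 74.1 ± 14.5 against 79.1 ± 6.20 CPM (−0.09, SE 0.16, adjusted p = 0.902). Bzw2 was at 157.1 ± 21.7 against 169.7 ± 18.6 CPM (−0.11, SE 0.14, adjusted p = 0.853), and Ahr, the aryl hydrocarbon receptor, at 17.3 ± 10.8 against 23.4 ± 6.64 CPM (−0.43, SE 0.50, adjusted p = 0.845). Log2 fold changes were −0.03 for Snx13, 0.25 for Gm7002, −0.32 for Gm5434, −0.07 for Gm48369, −0.30 for Ankmy2, 0.07 for Ispd and 0.13 for Mir5099, with adjusted p between 0.749 and 0.992. Their SE ran from 0.24 (Ankmy2) to 1.39 (Gm48369), so several of these values were imprecise.

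**Figure D5:**
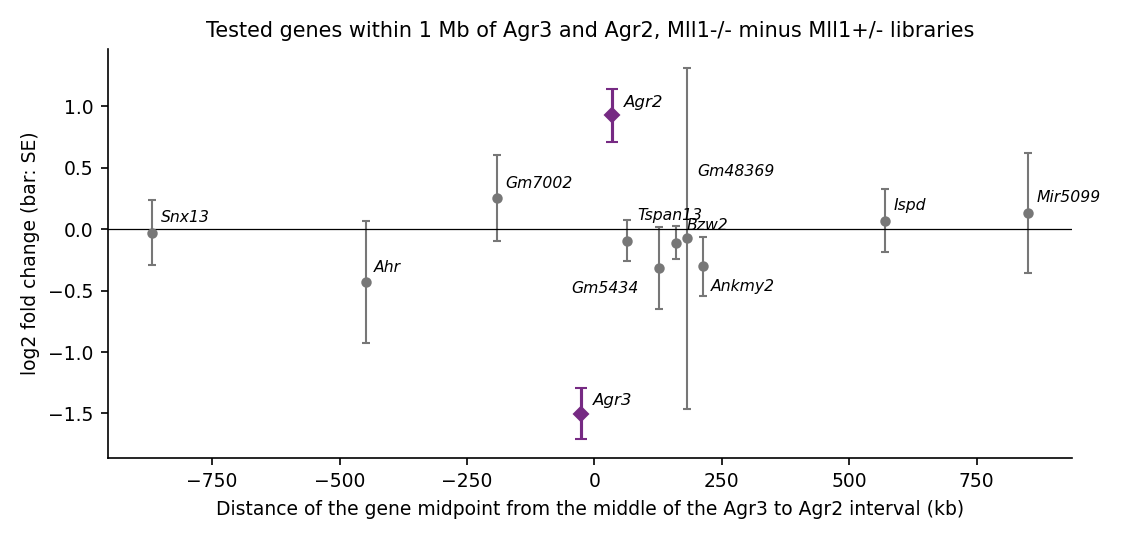
Log2 fold change with its SE for the 10 tested neighbours (grey) and for Agr3 and Agr2 (purple), against the distance of the gene midpoint from the middle of the interval that spans the pair, in kb. The neighbours lie between −0.43 and 0.25, Agr2 at 0.93 and Agr3 at −1.50.

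The spread among mice of 1 genotype was not used to choose the genes. The biological coefficient of variation was 0.230 for Agr2, above that of 87.2% of the 390 genes of similar level (median 0.169), and 0.218 for Agr3, above 59.3% of 1705 such genes (median 0.206). Without J_7075, its lowest Mll1-/- library, the value of Agr2 was 0.165. With genotype means removed, the log2 CPM of Agr2 and Agr3 showed no detectable relation over the 8 libraries (Pearson r = 0.03, exact permutation p = 0.998, Spearman rho = −0.24, exact permutation p = 0.705). Without the 2 libraries farthest from the median of the Agr3 values r was 0.16, and without J_7075 it was −0.71 (exact permutation p = 0.0625). With the run means also removed r was −0.54 (exact permutation p = 0.125), so the direction changed with these choices. The last p is the lowest that reordering 2 mice within each genotype and run can give, so it cannot show whether a relation is absent. Of 11 such relations between the members and Foxa1, Spdef or the mean level of goblet, Paneth and stem cell markers, 0 had an adjusted p under 0.05. The lowest p was that of Agr3 with Spdef (r = 0.83, exact permutation p = 0.0243, adjusted 0.267; rho = 0.83, p = 0.00694, adjusted 0.0764; r = 0.79 without the 2 farthest libraries). Among Mll1-/- libraries Agr3 and Spdef were both higher in J_7135 and J_7136, the second library run, and run means were not removed from that relation. Agr2 with Foxa1 gave r = −0.69 (exact permutation p = 0.194, adjusted 0.698) and 0.22 without the 2 farthest libraries, so that value rested on those libraries. Agr3 with Foxa1 gave r = −0.65 (exact permutation p = 0.122, adjusted 0.668), rho = −0.81 (exact permutation p = 0.0590, adjusted 0.325) and r = −0.84 without the 2 farthest libraries.

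The genes most like each member across the 8 libraries were found among 8913 tested genes with a mean of at least 10 CPM, by the Pearson correlation of log2 CPM. These correlations largely follow the genotype difference and are a description. The highest for Agr2 were Ints7 (0.93), Bspry (0.92), Mtmr7 (0.92), Tceal8 (0.92), Klc1 (0.91) and Neat1 (0.91), and the lowest were Tctex1d2 (−0.97), AC157602.1 (−0.95) and Golph3l (−0.95). None of these 9 genes passed an adjusted p of 0.1 between genotypes. The highest for Agr3 were Stk39 (0.97), Anpep (0.96), Rnf149 (0.96), Vta1 (0.96), Aadac (0.94) and Fam183b (0.93). Stk39, a kinase of ion transport, fell from 94.9 ± 5.38 to 50.6 ± 4.76 CPM (log2 fold change −0.91, SE 0.12, edgeR adjusted p = 0.0918), and Rnf149 fell from 100.7 ± 8.65 to 42.6 ± 10.6 CPM (−1.24, SE 0.18, adjusted p = 0.0952). The lowest for Agr3 were Idnk (−0.98), Cplx2 (−0.96) and Nubp1 (−0.95). Cplx2, a regulator of vesicle fusion, rose from 7.24 ± 0.678 to 22.9 ± 6.18 CPM (1.66, SE 0.25, adjusted p = 0.0973). Each of these 3 calls held without J_7135 (adjusted p 0.0511 for Stk39, 0.00749 for Rnf149 and 0.0140 for Cplx2) and was lost without any other library (0.180 to 0.289, 0.180 to 0.289 and 0.191 to 0.330) and with the library run as a term (0.113, 0.123 and 0.136). That of Cplx2 was also lost with upper quartile scaling (0.108). All 3 held with limma-voom (adjusted p 0.00834 to 0.0125) and DESeq2 (8.40e-09 to 2.67e-06). Over all tested genes 0.0851% were called, and genes picked for likeness to Agr3 largely follow the genotype difference. With genotype means removed, the highest were Ubb (0.95), 9130017K11Rik (0.95) and Ces1e (0.94) for Agr2 and B4galnt2 (0.98), Utrn (0.98) and Ifrd2 (0.97) for Agr3. No gene was among those named for both members.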

How the data were processed

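The authors deposited raw counts per gene for 53801 genes (featureCounts 1.6.3 after GSNAP per the labels' processing notes, mm10 with Ensembl 92), with the gene length in bases as another column, and a signal table made from these counts with DESeq2 size factors, 1 per library. Depth was 14468751 to 16847793 counts on genes. The counts were kept where filterByExpr passed them (minimum of 10 counts and of 15 in total, 16445 genes), scaled with TMM and fitted with edgeR 4.0.16 (robust quasi-likelihood test, genotype only, Benjamini-Hochberg over all tested genes, called at 0.1) in R 4.3.3. Standard errors come from the fold change and its F statistic. Strandedness of the counting is not given in the sources used here. Each library is 1 mouse with its own animal number, and replicate numbers follow accession order. The 2 members and all gene lists were chosen with earlier results of these data known. Named genes were the members, Kmt2a, 10 always-named factors and partners, pathway-list genes with an unadjusted p under 0.05, tested genes within 1 Mb, and the genes most like each member. The markers Lgr5, Olfm4, Ptprc, Vim, Chga, Dclk1 and Soat1 were named outside this rule, after their values were seen. Relations within genotype used exact permutation, two-sided, over 576 reorderings with all libraries. There were fewer reorderings where a library was left out or run means were removed. Alternatives were DESeq2 1.42.0, limma-voom (limma 3.58.1), other scalings and filters, a library run term and leaving out each library. The scripts were tested on simulated data.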

Additional observations from a re-analysis of the deposited data

Results flagged for a closer look

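Among 26 sets of 4 libraries of 1 genotype, covering the members and the always-named genes, 4 held a library whose gap to its nearest neighbour exceeded Dixon's critical share of the range, where chance gives about 5% of sets. In Mll1+/- libraries, Kmt2a was at 64.9 CPM in J_7100 against 48.9 to 51.2 CPM in the others, and Foxa3 was at 26.3 CPM in J_7100 against 16.8 to 17.7 CPM. Also in Mll1+/- libraries, Foxa2 was at 6.82 CPM in J_7134 against 10.3 to 11.1 CPM, and Atoh1 was at 0.722 CPM in J_7134 against 5.55 to 5.92 CPM. Neither Agr2 nor Agr3 had such a library in either genotype.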

How the results depend on the processing

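Under every scaling, filter, tool and leave-one-out fit run, Agr2 stayed higher and Agr3 lower in Mll1-/- libraries. These fits reuse the values by which the 2 genes were chosen. Leaving out 1 library gave log2 fold changes of 0.83 (without J_7096) to 1.10 (without J_7075) for Agr2 and −1.63 to −1.38 (without J_7079) for Agr3. Within library runs Agr3 gave −1.92 and −1.11. The count of calls over all genes, 14, was 8 with upper quartile scaling, 47 without a filter, 34 with at least 10 counts in every library, 517 with DESeq2, 103 with limma-voom and 0 with the library run term (1642 genes at an unadjusted edgeR p under 0.05), and 0 to 45 when 1 library was left out. The 2 calls among genes of the pathway lists (Foxa1 and Fam183b, cell type markers left aside) became 1 with upper quartile scaling, 9 with DESeq2, 0 with the run term and 0 to 2 when 1 library was left out. The 9 with DESeq2 were Atoh1, Ern2, Erp29, Fam183b, Foxa1, Klf4, Muc2, Spdef and Txndc5. DESeq2 was run on 40036 genes without the filterByExpr filter. Its default settings leave some genes without an adjusted p, so its calls are not a share of 40036. The small median changes of the pathway lists other than gel-forming mucins moved by over 1.5 times or changed sign in some of these fits, from −0.50 to 0.19 over the left-out libraries, and that of the gel-forming mucins was −0.03 once genes under the filter entered. Txndc12 turned to 0.022 with limma-voom and ranged from −0.17 to 0.10 over left-out libraries. The relation of Agr2 to Agr3 within genotype was −0.54 with run means also removed and −0.71 (without J_7075) to 0.32 over left-out libraries. The replicate variability of Agr2 was 0.165 to 0.246 and that of Agr3 0.197 to 0.234. The ratio of Agr2 to Agr3 averaged 7.53 and 1.41 per counted exon length in Mll1-/- and Mll1+/- libraries and 10.5 and 1.97 per coding transcript. No paired analysis was possible because the labels give each mouse its own number and no number is shared between genotypes. The causes of these changes were not tested. Each library held 494 counts or more for either gene, though amplified copies among them cannot be told apart. The 4 mice per genotype set the precision.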
